A study of Mus musculus with 4 samples.

Results

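The genes of glycolysis and of the metabolic response to low oxygen were followed in 4 mammary tumours of MMTV-Neu mice. The group holds 38 genes, chosen by symbol from the 38293 gene rows of the count files, and all 38 had a row. It covers 23 genes on the path from glucose uptake to lactate export and 15 further genes known as targets of the hypoxia-inducible factors. All 4 tumours came from FVB mice with the MMTV-Neu transgene, in which a mouse mammary tumour virus promoter drives the Neu (Erbb2) oncogene in mammary epithelium. Of these, 2 were AXL KO, lacking the receptor tyrosine kinase AXL, and 2 were WT for Axl. The labels give neither age nor whether replicates came from separate animals, so each p-value rests on the variation among these libraries alone, some of which may be technical.

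Glycolysis splits glucose into pyruvate in the cytosol, and lactate dehydrogenase then turns pyruvate into lactate, which leaves the cell through monocarboxylate transporters. When oxygen is scarce, the prolyl hydroxylases that mark HIF-1α and HIF-2α for destruction through VHL lose activity, and the stabilised factors raise transcription of glucose transporters, most glycolytic enzymes and genes that limit mitochondrial respiration, buffer acid or cut protein synthesis. Solid tumours are known for this response around poorly perfused regions, and many run glycolysis at a high rate even where oxygen is present.

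Gene counts per library lay between 18929743 and 33131739, and levels not given per kilobase are in CPM, gene counts scaled by library size with TMM factors, in the order of replicates 1 and 2. Axl itself, the check of the genotype, was at 4.75 and 4.89 CPM in AXL KO tumours, against 61.8 and 35.2 CPM in WT tumours, a log2 difference of −3.33 ± 0.35 (SE) with an adjusted p of 0.9997 by edgeR's quasi-likelihood test over 14330 genes. That test called 0 of 14330 genes at an adjusted p of 0.05, with 314 (2.19%) at an unadjusted p under 0.05. By DESeq2, 16 genes were called (0.112%) and 502 (3.5%) were under 0.05 before adjustment, and by limma-voom 0 and 285 (1.99%). None of the 38 genes was among the 16. Luminal epithelial markers were detected in every library, 10 of 10. Erbb2, the gene of the transgene's oncogene, made up 83.7% and 84.4% of their summed CPM in AXL KO tumours, against 73.0% and 74.1% in WT tumours. Its own level was 19776 and 19975 CPM in AXL KO tumours, against 10967.5 and 12594 CPM in WT tumours. The other 9 markers summed to 3862 and 3683 CPM in AXL KO tumours, against 4046 and 4404 CPM in WT tumours. Skeletal muscle markers, which would bring muscle isoforms of glycolytic enzymes, summed to 1.59 to 2.35 CPM, with Myh4 and Tnnt3 at 0 in all 4 libraries. WT replicate 2 stood apart from the other 3 libraries for many genes. It was the highest library for 34.6% and the lowest for 35.8% of all tested genes. AXL KO replicate 2 has another prefix in its description than the other 3 libraries, and values without it are those within the shared prefix. In bulk tumours, fewer cells of a type and less RNA per cell cannot be told apart.

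Most of the 38 genes were at their highest level in WT replicate 2, and the AXL KO tumours and WT replicate 1 lay closer together, apart from Gapdh. Of the 37 genes that passed the low-count filter, 32 were lower in AXL KO tumours and 5 higher by the fitted difference, with a median log2 difference of −0.60, against −0.0019 over all 14330 genes tested, of which 50.3% were lower. None passed edgeR's test, as 0.0% of all genes did, and each adjusted p was 0.9997. An unadjusted p under 0.05 was reached by Ndrg1, Higd1a and Pfkfb3, all lower in AXL KO tumours, where 1.04% of all genes were lower at that level. For 5 of the 37 genes the groups did not overlap and AXL KO was the lower one, namely Pfkfb3, Ndrg1, Ankrd37, Mxi1 and Higd1a, as for 14.5% of all genes, and for 0 of the 37 was it the higher one, as for 14.7% of all genes. WT replicate 2 was the highest library for 33 of the 37 genes, against 34.6% of all genes. It was at least 2 times the highest other library for 16 of the 37, against 3.42% of all genes. Without WT replicate 2 the median was 0.11, with 16 genes lower and 21 higher in AXL KO tumours, where 47.8% of all genes were lower. The difference between the genotypes thus rested on 1 WT library for most of these genes.

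**Figure D1:**
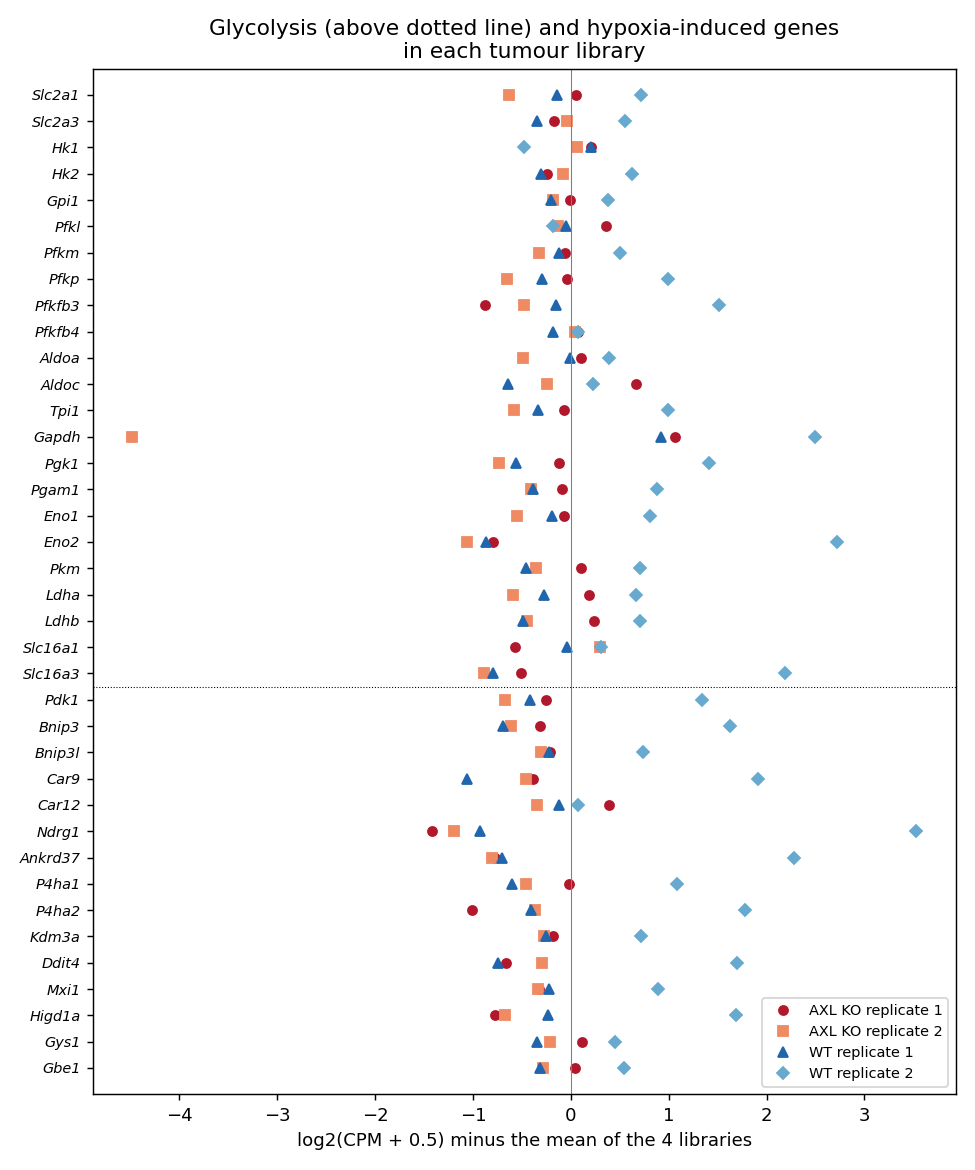
Each row is a gene and each point a tumour library, placed by log2(CPM + 0.5) minus the mean of the 4 libraries, with the path to lactate export above the dotted line and the other hypoxia targets below it. WT replicate 2 lies to the right of the other 3 points in most rows, Hk1, Pfkl, Aldoc and Car12 being exceptions, and AXL KO replicate 2 lies far to the left for Gapdh.

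By branch, the 15 hypoxia-induced genes had a median log2 difference of −1.18, with 14 lower in AXL KO tumours, and the 22 tested genes of the path to lactate a median of −0.41, with 18 lower. Median deviations of the hypoxia branch from the mean of the 4 libraries were −0.32 and −0.36 on the log2 scale in AXL KO tumours, against −0.41 and 1.35 in WT tumours. For the path to lactate they were −0.025 and −0.43 in AXL KO tumours, against −0.24 and 0.69 in WT tumours. Without WT replicate 2 the branch medians of the log2 difference were 0.029 and 0.12. These are descriptions, since the branches were not tested against each other.

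The promoter windows of the genes that stood out most in WT replicate 2 show what sequence they hold at their start sites. HIF binds DNA at a core of 5 bases, ACGTG or GCGTG, which reads CACGT or CACGC on the other strand. RefSeq windows of 300 bases (250 before and 50 after the start, build GRCm38.p6) were at hand for 35 of the 38 genes, with several starts for some, and 3 had none (Slc2a3, Bnip3l and Ndrg1). The core was present in at least 1 window of 29 of the 35 genes (82.9%), against 46.7% of all genes with a window. By window the shares were 38 of 52 (73.1%) and 43.8% of 32851. The group was chosen in part as known HIF targets, so these shares describe the chosen genes and test nothing. With 52 windows for 35 genes, against 32851 for 27025 genes, the share by gene was not compared at equal numbers of windows. The windows of the group were also richer in G and C, with a median of 61.8% against 52.7%, and both cores hold a CG pair, so the share was not compared at equal base composition. In the sequences below, written 5′ to 3′ along the gene, capitals mark each match on either strand, and CACGTG, the E-box, holds the core on both strands at once. Shown are the 6 genes with a window whose level in WT replicate 2 was the highest multiple of the next library, from Eno2 at 27.8 to Ddit4 at 4.02 times, and Ldha, whose first window had the most matches of the group.
Eno2 (chr6:124769624-124769923, minus strand): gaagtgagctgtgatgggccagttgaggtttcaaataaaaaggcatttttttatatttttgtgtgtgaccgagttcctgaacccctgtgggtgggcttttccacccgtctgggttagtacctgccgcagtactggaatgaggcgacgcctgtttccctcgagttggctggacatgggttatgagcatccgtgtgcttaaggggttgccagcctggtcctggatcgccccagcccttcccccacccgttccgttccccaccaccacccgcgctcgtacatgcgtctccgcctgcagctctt
Ankrd37 (chr8:45999801-46000100, minus strand): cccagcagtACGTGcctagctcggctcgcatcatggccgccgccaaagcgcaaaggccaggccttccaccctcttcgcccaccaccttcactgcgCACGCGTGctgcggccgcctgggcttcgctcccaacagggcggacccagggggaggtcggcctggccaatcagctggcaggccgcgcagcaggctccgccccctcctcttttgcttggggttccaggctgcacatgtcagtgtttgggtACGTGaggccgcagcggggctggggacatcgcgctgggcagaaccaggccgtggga
Slc16a3 (chr11:120948817-120949116, plus strand): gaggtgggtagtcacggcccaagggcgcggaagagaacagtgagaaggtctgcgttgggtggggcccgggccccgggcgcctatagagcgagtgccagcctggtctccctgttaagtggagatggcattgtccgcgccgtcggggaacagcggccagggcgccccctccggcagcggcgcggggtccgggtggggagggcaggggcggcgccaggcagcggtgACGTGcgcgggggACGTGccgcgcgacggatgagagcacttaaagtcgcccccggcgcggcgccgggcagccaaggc
P4ha2 (chr11:54100674-54100973, plus strand): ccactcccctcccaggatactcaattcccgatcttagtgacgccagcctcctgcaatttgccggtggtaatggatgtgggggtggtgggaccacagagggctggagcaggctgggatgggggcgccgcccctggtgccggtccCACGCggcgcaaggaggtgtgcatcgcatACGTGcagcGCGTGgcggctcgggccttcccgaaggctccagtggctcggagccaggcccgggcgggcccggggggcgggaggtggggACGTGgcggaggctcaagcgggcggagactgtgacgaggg
Car9 (chr4:43506776-43507075, plus strand): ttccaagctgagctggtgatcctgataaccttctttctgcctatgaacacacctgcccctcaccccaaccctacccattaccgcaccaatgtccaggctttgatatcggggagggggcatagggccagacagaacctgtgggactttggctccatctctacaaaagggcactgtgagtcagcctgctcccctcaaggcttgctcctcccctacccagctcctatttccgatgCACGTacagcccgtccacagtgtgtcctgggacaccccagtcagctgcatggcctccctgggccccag
Ddit4 (chr10:59951721-59952020, minus strand): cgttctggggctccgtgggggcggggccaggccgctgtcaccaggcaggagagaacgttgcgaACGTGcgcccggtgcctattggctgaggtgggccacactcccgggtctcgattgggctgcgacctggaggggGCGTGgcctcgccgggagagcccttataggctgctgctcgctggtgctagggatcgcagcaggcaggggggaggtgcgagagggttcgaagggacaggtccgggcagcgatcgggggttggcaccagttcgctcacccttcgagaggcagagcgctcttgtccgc
Ldha, first window (chr7:46845554-46845853, plus strand): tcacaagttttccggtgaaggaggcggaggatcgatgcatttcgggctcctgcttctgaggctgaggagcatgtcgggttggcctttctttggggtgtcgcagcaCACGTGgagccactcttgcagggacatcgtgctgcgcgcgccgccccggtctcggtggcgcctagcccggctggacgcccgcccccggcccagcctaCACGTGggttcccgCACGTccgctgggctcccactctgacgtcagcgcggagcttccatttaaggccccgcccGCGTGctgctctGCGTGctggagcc

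The Slc16a3 window holds ACGTG 27 and 14 bases before the start, and that of Ankrd37 holds it 241 and 6 bases before the start. P4ha2 has ACGTG 78 bases before and 10 bases after the start. Car9 has a single match, CACGT 18 bases before the start, and Ddit4 has ACGTG at 187 and GCGTG at 115 bases before it. Ldha has E-boxes at 145 and 48 bases before the start in its first window. Genes that did not stand out in WT replicate 2 held matches too. A window of Hk1, whose lowest library was WT replicate 2, had 5 matches. The Slc16a1 window also had 5, with an E-box, and WT replicate 2 was 1.01 times its next library. Whether matches go with the level in WT replicate 2 was not tested. A match is a description of these letters, and the lack of one in the Eno2 window says only that they are not in these 300 bases.

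Glucose enters through GLUT1 (Slc2a1), the widespread transporter, and GLUT3 (Slc2a3), best known from neurons. Slc2a1 was at 139 and 86.4 CPM in AXL KO tumours, against 121 and 221 CPM in WT tumours. The highest of the 4 was WT replicate 2 and the lowest AXL KO replicate 2. The groups overlapped, since AXL KO replicate 1 exceeded WT replicate 1, and the log2 difference was −0.60, or −0.10 without WT replicate 2. Slc2a3 was rare, at 0.748 and 0.870 CPM in AXL KO tumours, against 0.608 and 1.57 CPM in WT tumours, from 13 to 30 counts a library. Per kilobase of exon, GLUT1 transcripts exceeded GLUT3 transcripts 205-fold to 411-fold in every library.

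Hexokinases trap glucose by phosphorylation, and the transcripts were mainly those of Hk1, the housekeeping form, with few of Hk2, a HIF target. Hk1 was at 1029.6 and 937 CPM in AXL KO tumours, against 1034 and 640.0 CPM in WT tumours, and WT replicate 2 was its lowest library. Hk2 had the opposite order, with 28.3 and 31.6 CPM in AXL KO tumours, against 27.0 and 52.0 CPM in WT tumours. Hk2 made up 3.78% and 4.60% of the RPKM (CPM per kilobase of exon) of both hexokinases in AXL KO tumours, against 3.60% and 10.4% in WT tumours. Gpi1, the isomerase that follows, was at 613 and 545 CPM in AXL KO tumours, against 536 and 804 CPM in WT tumours.

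Phosphofructokinase commits the sugar to glycolysis, and the transcript of its liver form, Pfkl, was the main one. Pfkl was at 953 and 679.5 CPM in AXL KO tumours, against 719.7 and 655 CPM in WT tumours, and the muscle form Pfkm was at 95.3 and 79.4 CPM in AXL KO tumours, against 91.7 and 141 CPM in WT tumours. The platelet form Pfkp was at 205 and 134 CPM in AXL KO tumours, against 172 and 420.2 CPM in WT tumours, and WT replicate 2 was 2.05 times its highest other library. As shares of the RPKM of the 3 forms, Pfkp took 8.19% and 7.37% in AXL KO tumours, against 8.65% and 18.3% in WT tumours, while Pfkl took 76.5% and 75.1% in AXL KO tumours, against 72.8% and 57.2% in WT tumours. The balance of the 3 forms was thus alike in both AXL KO tumours and WT replicate 1 and shifted away from Pfkl in WT replicate 2.

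Pfkfb3 and Pfkfb4 make fructose 2,6-bisphosphate, the strongest activator of phosphofructokinase, and only the first stood out in WT replicate 2. Pfkfb3 was at 12.6 and 16.7 CPM in AXL KO tumours, against 21 and 67.9 CPM in WT tumours. The groups did not overlap, and WT replicate 2 was 3.22 times the next. The log2 difference was −1.60 ± 0.57 (SE), with an unadjusted p of 0.0371 by edgeR's quasi-likelihood test, and −0.52 without WT replicate 2. Pfkfb4 was low and even, with 2.62 and 2.55 CPM in AXL KO tumours, against 2.10 and 2.62 CPM in WT tumours. Its groups overlapped.

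**Figure D2:**
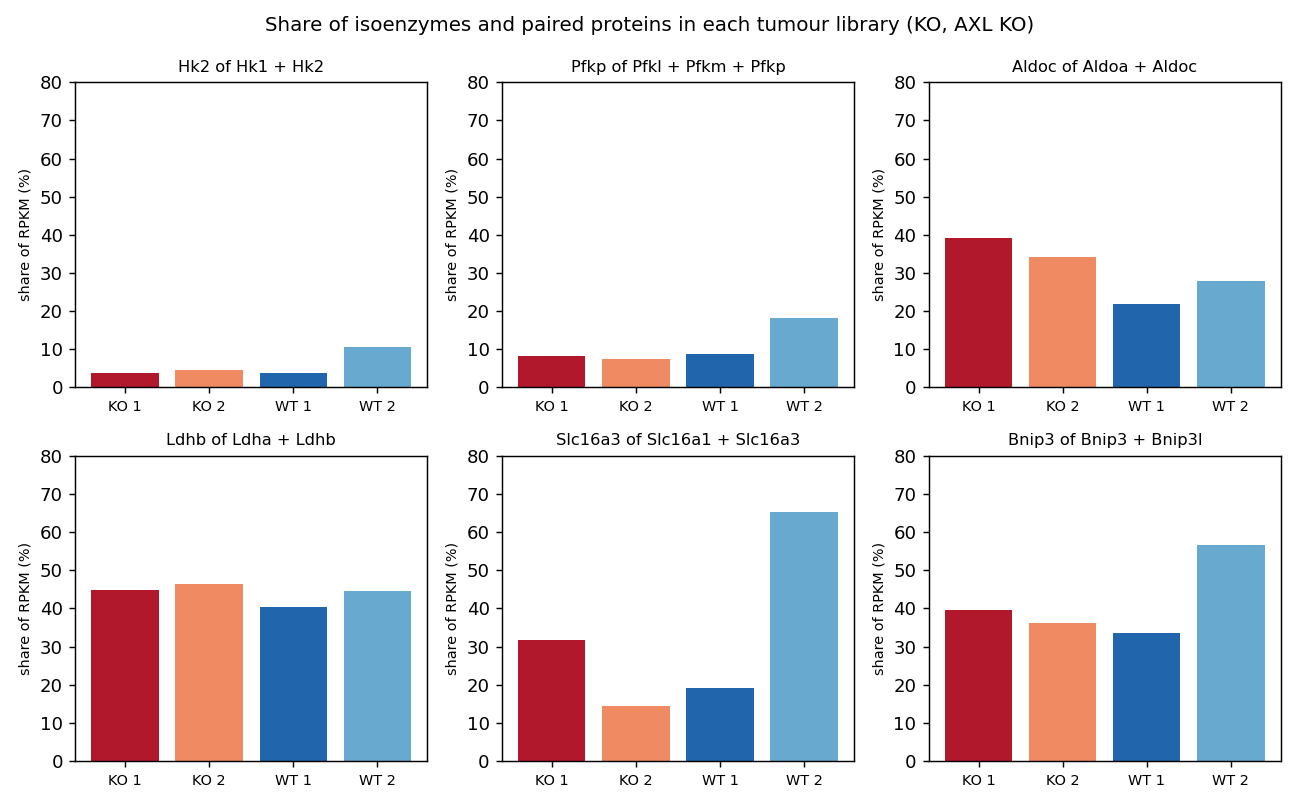
Each panel gives the share of 1 isoenzyme or partner in the summed RPKM of its set, in percent, with 1 bar for each tumour library and no error bar because each bar is 1 library. Hk2, Pfkp, Slc16a3 and Bnip3 have their tallest bar in WT replicate 2. Ldhb stays between 40.3% and 46.4%. Aldoc and, by a small margin, Ldhb are taller in both AXL KO libraries than in either WT library, and Pfkp is shorter.

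Aldolase cuts the 6-carbon sugar, and these tumours held many transcripts of aldolase C (Aldoc), known as the brain form, beside the widespread Aldoa. Aldoa was at 2346 and 1547 CPM in AXL KO tumours, against 2167 and 2861 CPM in WT tumours. Aldoc was at 1693 and 897 CPM in AXL KO tumours, against 682 and 1244 CPM in WT tumours, with AXL KO replicate 1 highest and WT replicate 1 lowest, and its log2 difference of 0.43 ± 0.47 (SE) did not pass (unadjusted p = 0.405, edgeR quasi-likelihood test). Aldoc made up 39.2% and 34.1% of the RPKM of both aldolases in AXL KO tumours, against 21.9% and 28.0% in WT tumours. The groups did not overlap in this share, which was described after its values were seen, and an exact permutation test of 2 against 2 libraries cannot give a two-sided p below 0.333. Nor was this particular to Aldoc. Per kilobase, the ratio of Ldhb to Ldha was also higher in both AXL KO tumours. The ratios of Pfkp and Pfkm to Pfkl, Pfkfb3 to Pfkfb4 and P4ha2 to P4ha1 were lower in both. In the other ratios examined the groups overlapped. These were Slc2a1 to Slc2a3, Hk2 to Hk1, Eno2 to Eno1, Slc16a3 to Slc16a1, Bnip3 to Bnip3l and Car9 to Car12. Triose-phosphate isomerase (Tpi1), which balances the 2 products of aldolase, was at 410.1 and 288 CPM in AXL KO tumours, against 341 and 856 CPM in WT tumours, and WT replicate 2 was 2.09 times the next library.

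The enzymes from glyceraldehyde 3-phosphate to pyruvate were highest in WT replicate 2, and 1 of them, Gapdh, was nearly missing from AXL KO replicate 2. Gapdh, the dehydrogenase of this step and a common reference gene, was at 461 and 9.39 CPM in AXL KO tumours, against 419 and 1245 CPM in WT tumours, from 8626 and 313 counts in AXL KO replicates 1 and 2 and 8952 and 23772 counts in WT replicates 1 and 2. Its log2 difference of −1.82 had a standard error of 1.56, and it was −0.87 without AXL KO replicate 2 and −6.47 without AXL KO replicate 1. The ribosomal protein genes Rpl21 and Rpl29, chosen after their values were seen, were also far lower in AXL KO replicate 2 than in the other libraries. Rpl21 was at 627 and 17.2 CPM in AXL KO tumours, against 469 and 616 CPM in WT tumours, and Rpl29 at 51.8 and 3.39 CPM in AXL KO tumours, against 43.0 and 62.4 CPM in WT tumours. All 3 genes have many processed copies in the mouse genome, and the line for alignments that were not unique held 25.6% and 24.6% of all lines summed in AXL KO tumours and 23.2% and 28.1% in WT tumours. Processed pseudogenes together summed to 4731 and 4526 CPM in AXL KO tumours, against 3987 and 4915 CPM in WT tumours. Whether AXL KO replicate 2, whose description has another prefix, was aligned or counted with other settings is not given in the sources used here. The part of such settings and of the copies in the low counts of these 3 genes was not tested.

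The neighbours of Gapdh showed no such gap in AXL KO replicate 2. Pgk1, which yields the first ATP of the path, was at 167 and 109 CPM in AXL KO tumours, against 123 and 483 CPM in WT tumours, and WT replicate 2 was 2.89 times the next library. The mutase Pgam1 was at 55.4 and 44.7 CPM in AXL KO tumours, against 45.2 and 109 CPM in WT tumours. Eno1, the main enolase, was at 789 and 565 CPM in AXL KO tumours, against 725 and 1448 CPM in WT tumours, and Pkm, which encodes the M1 and M2 forms of pyruvate kinase that gene counts do not separate, was at 1649 and 1201 CPM in AXL KO tumours, against 1119 and 2514 CPM in WT tumours. For each of these 4 genes WT replicate 2 was 1.53 to 2.89 times the highest other library. The log2 difference of Pgk1 was −1.13 ± 0.65 (SE; unadjusted p = 0.140, edgeR), and 0.17 without WT replicate 2.

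Eno2, the enolase known from neurons and a HIF target, was the gene that failed the low-count filter. It had 6 and 6 counts in AXL KO replicates 1 and 2, against 6 and 170 counts in WT replicates 1 and 2, or 0.320 and 0.180 CPM in AXL KO tumours, against 0.281 and 8.90 CPM in WT tumours. WT replicate 2 was 27.8 times the highest other library, a wider gap than in the other 37 genes, yet Eno2 stayed at 0.698% of the RPKM of both enolases there. Reads of Eno1 may be shared with its close copy Eno1b, which was at 110.2 and 76.3 CPM in AXL KO tumours, against 99.8 and 201 CPM in WT tumours, and a like doubt applies to Pgk1, Pgam1, Ldha and Aldoa, which have processed copies too.

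**Figure D3:**
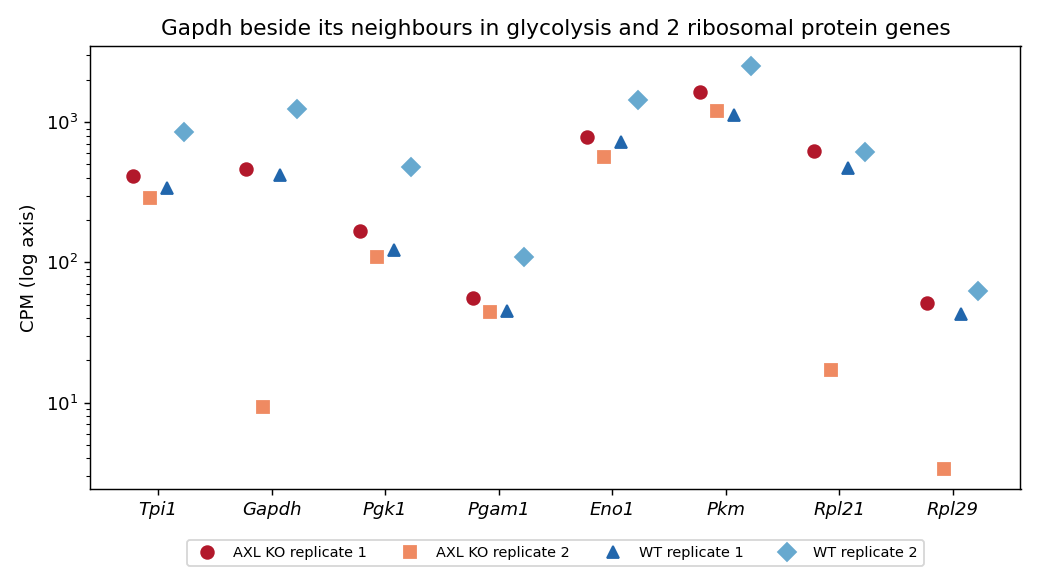
CPM on a log axis for the triose isomerase gene, the genes from glyceraldehyde 3-phosphate to pyruvate other than Eno2, and 2 ribosomal protein genes, with 1 point for each tumour library. AXL KO replicate 2 is at 9.39 CPM for Gapdh while its points for the other glycolytic genes lie near those of AXL KO replicate 1 and WT replicate 1.

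The share of the lactate dehydrogenase subunits was alike in all 4 tumours, while that of the lactate transporters was not. Ldha, whose subunit favours lactate formation, was at 782 and 456 CPM in AXL KO tumours, against 568 and 1093 CPM in WT tumours, and Ldhb, whose subunit favours the reverse reaction, was at 302 and 188 CPM in AXL KO tumours, against 182 and 418 CPM in WT tumours. Ldhb made up 44.9% and 46.4% of the RPKM of both in AXL KO tumours, against 40.3% and 44.6% in WT tumours. The groups did not overlap in this share either, by a small margin. Slc16a1 (MCT1), which carries lactate in either direction, was at 3.26 and 6.39 CPM in AXL KO tumours, against 4.96 and 6.44 CPM in WT tumours. Slc16a3 (MCT4), the exporter of glycolytic cells and a HIF target, was at 1.82 and 1.29 CPM in AXL KO tumours, against 1.4 and 14.5 CPM in WT tumours, with WT replicate 2 at 7.99 times the next library. The 3 other libraries lay within 1.29 and 1.82 CPM, and the log2 difference of −2.36 ± 1.07 (SE; unadjusted p = 0.0774, edgeR) was 0.12 without WT replicate 2. MCT4 made up 31.7% and 14.4% of the RPKM of both transporters in AXL KO tumours, against 19.1% and 65.2% in WT tumours.

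Of the genes that act on mitochondria, Pdk1, Bnip3, Bnip3l and Higd1a were each 1.94 to 3.87 times the next library in WT replicate 2. Pdk1, a kinase that shuts pyruvate dehydrogenase, was at 51.6 and 38.6 CPM in AXL KO tumours, against 46.1 and 158 CPM in WT tumours, with a log2 difference of −1.18 ± 0.58 (SE; unadjusted p = 0.0967, edgeR) and −0.032 without WT replicate 2. The 3 other kinases of the family are not among the 38 genes and were chosen after their values were seen. Of them only Pdk3 was also highest in WT replicate 2. Pdk4 was at 7.90 and 11.6 CPM in AXL KO tumours, against 5.84 and 2.04 CPM in WT tumours, and Pdk2 at 158 and 138 CPM in AXL KO tumours, against 172 and 116 CPM in WT tumours, both lowest in WT replicate 2. Pdk3 was at 9.83 and 12.3 CPM in AXL KO tumours, against 10.9 and 15.4 CPM in WT tumours, with WT replicate 2 at 1.25 times the next library. Bnip3 and Bnip3l (NIX) are receptors for the removal of mitochondria by autophagy. Bnip3 was at 36.8 and 29.9 CPM in AXL KO tumours, against 28.2 and 143 CPM in WT tumours, and Bnip3l at 95.7 and 89.9 CPM in AXL KO tumours, against 95.5 and 186 CPM in WT tumours. Their log2 differences were −1.36 ± 0.73 and −0.60 ± 0.34 (SE), with unadjusted p-values of 0.119 and 0.133 by edgeR, and 0.24 and −0.041 without WT replicate 2. Per kilobase, Bnip3 exceeded Bnip3l in WT replicate 2 alone, where it made up 56.7% of both. Higd1a, a small mitochondrial inner membrane protein gene induced by hypoxia, was at 9.99 and 10.8 CPM in AXL KO tumours, against 14.8 and 57.4 CPM in WT tumours. Its groups did not overlap, and its log2 difference of −1.80 ± 0.64 (SE; unadjusted p = 0.0364, edgeR) was −0.51 without WT replicate 2, and WT replicate 1 also lay above both AXL KO libraries.

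The 2 membrane carbonic anhydrases, which handle the acid that glycolysis exports, had unlike orders of libraries. Car9, a classical HIF-1 target, was at 6.2 and 5.88 CPM in AXL KO tumours, against 3.69 and 32.7 CPM in WT tumours, with WT replicate 2 at 5.27 times the next library and WT replicate 1 lowest. Car12 was at 1223 and 734 CPM in AXL KO tumours, against 854 and 976 CPM in WT tumours, with AXL KO replicate 1 highest, and its log2 difference was 0.10. Without WT replicate 2 the difference of Car9 was 0.71. Car12 was the main form per kilobase, and Car9 made up 1.64% and 2.57% of both in AXL KO tumours, against 1.41% and 9.94% in WT tumours. A transcript on the other strand, Gm12454, overlaps 9.29% of the exon length of Car9. Without a stated strand setting, how reads in that stretch were assigned is not known. Overlaps above 10% of exon length were those of Ankrd37, given below, Gpi1 (11.5%, Gm26762, other strand) and Pfkm (10.2%, Gm26513, same strand).

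The collagen prolyl 4-hydroxylases and the histone demethylase Kdm3a are oxygen-using enzymes whose genes HIF raises. P4ha1 was at 35.1 and 25.8 CPM in AXL KO tumours, against 23.4 and 76.2 CPM in WT tumours, and P4ha2 at 1.07 and 1.95 CPM in AXL KO tumours, against 1.87 and 10.3 CPM in WT tumours. The log2 difference of P4ha2 was −1.98 ± 0.87 (SE; unadjusted p = 0.0710, edgeR), and −0.27 without WT replicate 2. Kdm3a, which removes methyl groups from lysine 9 of histone H3, was at 87.7 and 82.4 CPM in AXL KO tumours, against 83.4 and 164 CPM in WT tumours. All 3 genes were highest in WT replicate 2, and the groups of each overlapped only through WT replicate 1.

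Ndrg1, a stress-response gene strongly induced by hypoxia, showed the largest difference among the tested genes of the group. It was at 8.44 and 9.96 CPM in AXL KO tumours, against 12.1 and 275 CPM in WT tumours, or 9.20 ± 1.07 CPM in AXL KO tumours and 144 ± 186 CPM in WT tumours (SD, n = 2 each), and WT replicate 2 was 22.8 times WT replicate 1. Its log2 difference was −3.96 ± 1.38 (SE), with an unadjusted p of 0.0335 by edgeR's quasi-likelihood test, −0.39 without WT replicate 2 and −4.90 without WT replicate 1. Ankrd37, an ankyrin repeat gene that HIF-1 raises, was at 1.18 and 1.14 CPM in AXL KO tumours, against 1.26 and 13.5 CPM in WT tumours, with a log2 difference of −2.66 ± 1.09 (SE; unadjusted p = 0.0579, edgeR) and −0.13 without WT replicate 2. The AXL KO libraries and WT replicate 1 were close to each other for Ankrd37, so its separation of the groups was slight. Of its exon length, 22.7% overlaps Lrp2bp on the other strand, which had 0 to 16 counts a library.

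Ddit4 (REDD1), which restrains mTORC1 under stress, was at 22.8 and 29.5 CPM in AXL KO tumours, against 21.4 and 118 CPM in WT tumours, and Mxi1, an antagonist of MYC, at 76.4 and 75.7 CPM in AXL KO tumours, against 81.9 and 178 CPM in WT tumours. Their levels in WT replicate 2 were 4.02 and 2.18 times the next library. Their log2 differences were −1.42 ± 0.77 and −0.77 ± 0.38 (SE), with unadjusted p-values of 0.122 and 0.0955 by edgeR, and 0.29 and −0.11 without WT replicate 2. The glycogen enzymes were closer to even. Gys1, the synthase, was at 86.5 and 68.7 CPM in AXL KO tumours, against 62.5 and 109 CPM in WT tumours, and Gbe1, the branching enzyme, at 37.2 and 29.6 CPM in AXL KO tumours, against 28.9 and 53.0 CPM in WT tumours, with WT replicate 2 at 1.26 and 1.42 times the next library.

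With WT replicate 1 left out, so that both AXL KO tumours were set against WT replicate 2, edgeR called 10 of the 37 genes, all lower in AXL KO tumours, where 0.572% of all genes were called lower. They were Pfkfb3, Slc16a3, Pdk1, Bnip3, Car9, Ndrg1, Ankrd37, Ddit4, Mxi1 and Higd1a, with adjusted p-values from 0.0121 for Ndrg1 to 0.0497 for Pdk1. In that fit the lone WT library is assumed to vary like the AXL KO libraries. Over all genes it called 216 (1.51%) in that fit. Without WT replicate 2 edgeR called 0 of the 37 and 0 of all genes, while 394 (2.75%) had an unadjusted p under 0.05. Both counts were also 0 without AXL KO replicate 1, where 113 of all genes (0.789%) had an unadjusted p under 0.05. The same held without AXL KO replicate 2, where 220 of all genes (1.54%) were under that unadjusted level. The unadjusted shares are thus not a background for the called counts.

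**Figure D4:**
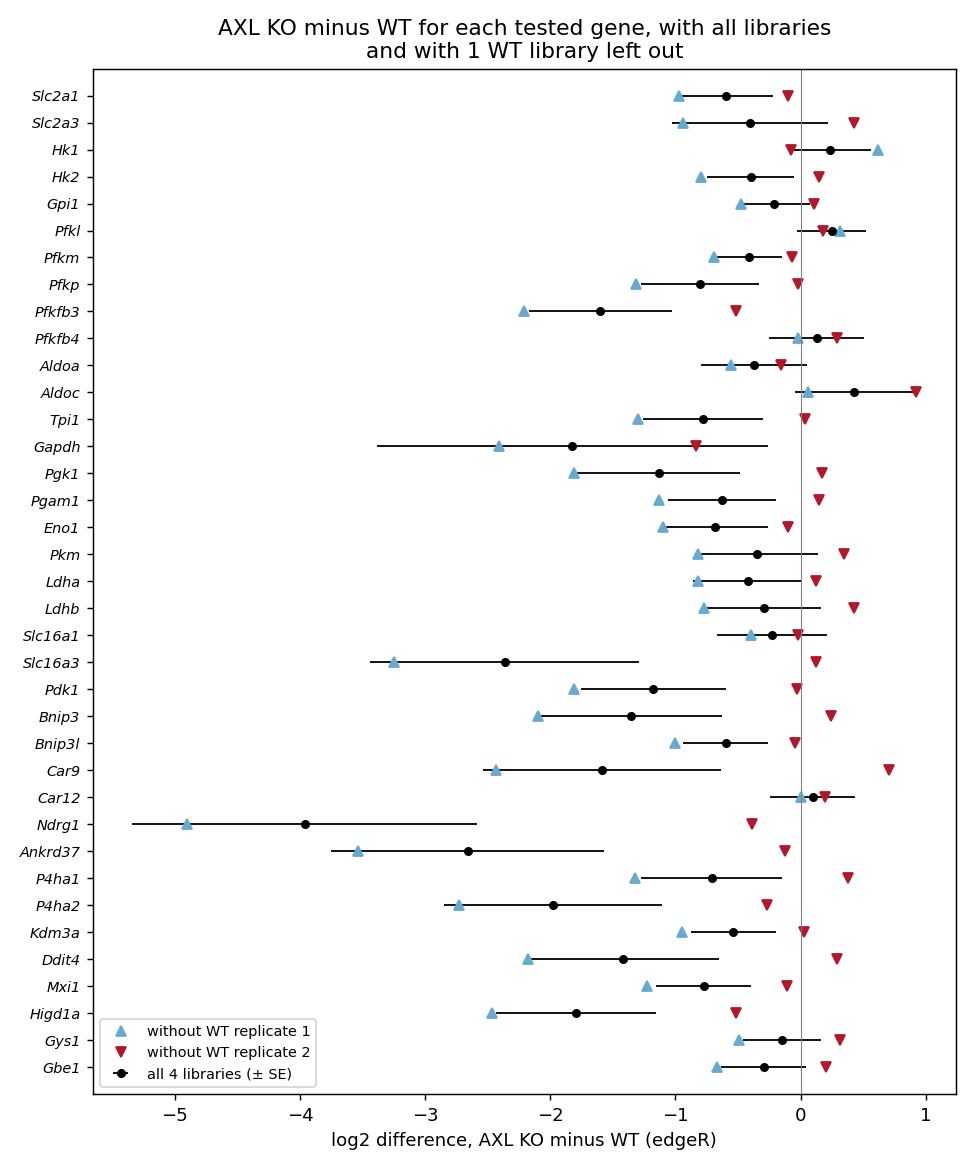
For each of the 37 tested genes the black point is the log2 difference of AXL KO minus WT with its standard error, and the triangles are the difference with 1 WT library left out. The values without WT replicate 2 lie between −0.83 and 0.92, and those without WT replicate 1 reach −4.90 for Ndrg1.

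Further hypoxia targets, listed with earlier results of these data known, were also mostly highest in WT replicate 2. Of 27 tested, 26 were lower in AXL KO tumours (median log2 difference −0.68), 0 passed edgeR's test, and 4 had an unadjusted p under 0.05, all lower, against 1.04% of all genes. For 7 the groups did not overlap and AXL KO was the lower one, against 14.5% of all genes. WT replicate 2 was highest for 22 of the 27, against 34.6% of all genes. Which library was lowest varied, with AXL KO replicate 1 lowest for 11, AXL KO replicate 2 for 9 and WT replicate 1 for 6. Placental growth factor (Pgf) was at 11.5 and 12.7 CPM in AXL KO tumours, against 21.6 and 106 CPM in WT tumours, and the peptide hormone gene Adm at 2.62 and 2.16 CPM in AXL KO tumours, against 3.13 and 22.8 CPM in WT tumours. The histone demethylase gene Kdm4b differed in pattern, at 38 and 39.4 CPM in AXL KO tumours, against 56.3 and 51.7 CPM in WT tumours, with both WT libraries alike. Without WT replicate 2 the median was −0.042, with 14 of 27 lower.

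The HIF genes and their regulators lacked a shared order. Of 9 tested, 6 were lower in AXL KO tumours (median −0.054) and 0 passed. WT replicate 2 was highest for 4, against 34.6% of all genes. Hif1a was at 119 and 153 CPM in AXL KO tumours, against 136 and 233 CPM in WT tumours. The oxygen-sensing hydroxylase gene Egln1, itself a HIF target, was at 49.4 and 47.0 CPM in AXL KO tumours, against 63.2 and 105 CPM in WT tumours, and Vhl at 24.7 and 25.2 CPM in AXL KO tumours, against 28.4 and 46.1 CPM in WT tumours. Hif1an, the asparaginyl hydroxylase of HIF, was at 77.0 and 78.1 CPM in AXL KO tumours, against 81.2 and 79.8 CPM in WT tumours. Egln1, which is also in the list of targets, Vhl and Hif1an were the 3 of 9 whose groups did not overlap with AXL KO lower, against 14.5% of all genes. HIF is controlled mainly through protein stability, which RNA counts do not show.

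Isoforms of the path that are not among the 38 genes showed no shared order, with 6 of 10 tested genes higher in AXL KO tumours and a median log2 difference of 0.056. Ldhd, a mitochondrial D-lactate dehydrogenase, was at 41.6 and 24.1 CPM in AXL KO tumours, against 19.9 and 152 CPM in WT tumours, and Hk3, the hexokinase of white blood cells, at 6.09 and 6.93 CPM in AXL KO tumours, against 5.61 and 3.61 CPM in WT tumours. WT replicate 2 was highest for 4 and lowest for 4 of the 10, against 34.6% and 35.8% of all genes.

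**Figure D5:**
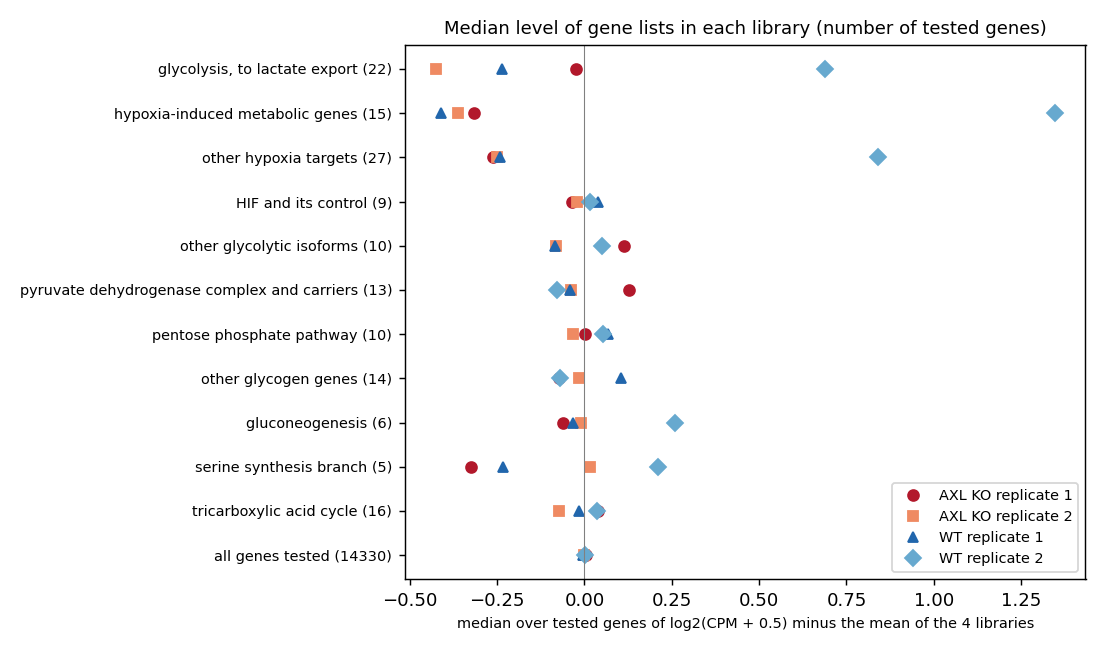
Each row is a gene list with its number of tested genes, and each point is the median over these genes of log2(CPM + 0.5) minus the mean of the 4 libraries. WT replicate 2 stands at 0.69 and 1.35 in the top 2 rows and at 0.84 for the other hypoxia targets, while all 4 libraries lie within −0.32 and 0.26 in the remaining rows.

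Some marker lists also set WT replicate 2 apart. Mitosis genes, 10 of 10 detected in each library, summed to 396 and 612 CPM in AXL KO tumours, against 521 and 1125 CPM in WT tumours. T and NK cell markers, 7 of 7 detected, summed to 13.4 and 18.8 CPM in AXL KO tumours, against 17.1 and 1.94 CPM in WT tumours. Macrophage markers (8 of 8) summed to 743 and 966 CPM in AXL KO tumours, against 859 and 584 CPM in WT tumours. Endothelial markers (8 of 8) summed to 107 and 144 CPM in AXL KO tumours, against 123 and 124 CPM in WT tumours. Fibroblast markers (7 of 7) summed to 272 and 911 CPM in AXL KO tumours, against 677 and 984 CPM in WT tumours, and basal epithelial markers (6 of 6) to 16.9 and 30.9 CPM in AXL KO tumours, against 25.1 and 54.6 CPM in WT tumours. Over the 4 libraries, adipocyte markers ranged from 58.5 to 121 CPM, erythroid markers from 44.7 to 131 CPM, neutrophil markers from 3.09 to 6.33 CPM with Ly6g at 0, and B and plasma cell markers from 1.23 to 4.21 CPM. The part of these differences in the levels of the 38 genes was not tested.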

How the data were processed

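RNA-seq counts of 2 AXL KO and 2 WT tumours were used, grouped by sample title. Per the labels' protocols, RNA was extracted with Trizol and column-purified, with libraries made by Illumina protocols. The deposited files hold whole-number read counts per gene, not normalised. Build GRCm38 is named in the submitters' processing notes, as are DESeq2 1.4.5, HTSeq 0.5.3, TopHat2 2.0.10 and CASAVA 1.8, with no role stated. For annotation release and strand setting: not given in the sources used here.

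The 5 summary lines of each file entered neither library sizes nor tests. As a share of the sum of all lines, reads outside genes took 8.11% and 5.90% in AXL KO replicates 1 and 2 and 5.27% and 6.85% in WT replicates 1 and 2, and ambiguous reads 1.85%, 1.09%, 0.981% and 0.635% in that order. Symbols, positions and exon lengths came from GENCODE M21 (GRCm38), which matched 36429 of 38293 identifiers. Libraries differed by a chi-square of at least 30.3 per degree of freedom, so no file was a copy of another. The lowest value was that of AXL KO replicate 2 with WT replicate 1. It does not show whether replicates came from separate animals.

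edgeR 4.0.16 (filterByExpr, TMM, glmQLFit with legacy=FALSE, glmQLFTest) compared AXL KO with WT over 14330 genes with Benjamini-Hochberg adjustment. The standard error is the log2 difference divided by the root of the F statistic. Fits were tested on simulated data. Alternatives were other scalings and filters, DESeq2 1.42.0, limma-voom (limma 3.58.1), quasi-likelihood settings, the replicate block and each library left out, with the tested genes kept. RPKM is CPM per kilobase of exon. The genes and lists were chosen with earlier results of these data known. All 38 genes are reported, with full statistics for the 12 of smallest p, and up to 4 genes of smallest p in other lists. Outside this rule, statistics are also given for Aldoc, and levels for Hif1an and Pdk2. R was version 4.3.3.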

Additional observations from a re-analysis of the deposited data

How the results depend on the processing

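edgeR called 0 genes under the other scalings and filters, limma-voom, both quasi-likelihood settings and an adjusted p of 0.10, 16 genes were called by DESeq2, and 0 to 216 with 1 library left out. The median log2 difference of the group stayed between −0.63 and −0.50 under the other scalings, filters and tools, and ran from −1.0 to 0.11 with 1 library left out. The value above 0 was that without WT replicate 2. Leaving Gapdh out, chosen after seeing the data, left it at −0.60. The log2 difference of Axl was −3.33 in DESeq2, where it passed (adjusted p = 2.23e-13), and ran from −3.68 to −2.87 with 1 library left out, passing without WT replicate 1 (adjusted p = 0.0237). With the replicate block, 0 genes were called, the median of the group was −0.50 and Axl was at −3.27. The labels do not say that a number marks a shared litter, batch or day. Deviations of same-numbered libraries had a correlation of −0.0450 over genes. With 2 libraries per group, this value cannot show whether the numbers pair the samples. With 1 library left out, log2 differences changed sign for 23 genes, running from −0.022 to 0.45 for Pfkl, −0.11 to 0.92 for Aldoc, −0.82 to 0.16 for Slc16a1, −0.32 to 0.40 for Car12, −0.021 to 0.29 for Pfkfb4, −0.94 to 0.42 for Slc2a3, −0.073 to 0.62 for Hk1, −0.80 to 0.15 for Hk2, −0.47 to 0.11 for Gpi1, −1.30 to 0.033 for Tpi1, −1.81 to 0.17 for Pgk1, −1.13 to 0.15 for Pgam1, −0.82 to 0.35 for Pkm, −0.87 to 0.12 for Ldha, −0.77 to 0.43 for Ldhb, −3.24 to 0.12 for Slc16a3, −2.10 to 0.24 for Bnip3, −2.44 to 0.71 for Car9, −1.32 to 0.38 for P4ha1, −0.94 to 0.029 for Kdm3a, −2.18 to 0.29 for Ddit4, −0.49 to 0.31 for Gys1 and −0.67 to 0.21 for Gbe1. The cause was not tested.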

Other observations

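Pathways linked to glycolysis had median log2 differences from −0.17 for the serine branch to 0.078 for genes around pyruvate dehydrogenase. Of their genes 0 passed edgeR's test. The 10 tested genes of the pentose phosphate pathway, which makes NADPH and ribose, had a median log2 difference of −0.0031, with 5 higher and 5 lower in AXL KO tumours. G6pdx, its first enzyme, was at 80.7 and 75.9 CPM in AXL KO tumours, against 103 and 117 CPM in WT tumours. Its groups did not overlap, and its unadjusted p by edgeR was 0.0320, where 2.19% of all genes were under 0.05. The 16 tricarboxylic acid cycle genes had a median of −0.0046, with 7 higher and 9 lower.

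Genes around pyruvate dehydrogenase, which feeds pyruvate into the mitochondria, were higher in AXL KO tumours for 9 of 13 (median 0.078). The phosphatase gene Pdp2, which switches the enzyme on, was at 6.25 and 8.01 CPM in AXL KO tumours, against 3.88 and 3.77 CPM in WT tumours. Its groups did not overlap and AXL KO was the higher one, as for 14.7% of all genes. The same held for Pdk4, one of the kinases that switch it off. Other glycogen genes had a median of 0.016 over 14 genes, and Pgm1, which links glycogen to glycolysis, was at 53.8 and 51.8 CPM in AXL KO tumours, against 62.9 and 117 CPM in WT tumours. In the serine branch 4 of 5 genes were lower in AXL KO tumours (median −0.17), with Psat1 at 53.4 and 88.5 CPM in AXL KO tumours, against 73.1 and 184 CPM in WT tumours. WT replicate 2 was highest for 4 of these 5 genes, against 34.6% of all genes. Of 6 tested gluconeogenesis genes 4 were lower (median −0.097), with Fbp1 at 0.534 and 1.11 CPM in AXL KO tumours, against 1.82 and 2.83 CPM in WT tumours.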
